A study of Mus musculus with 192 samples.

Results

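Among 192 mouse bone marrow progenitors that were sorted singly, 64 carried the most CD135, and these were divided by their surface Sca-1. The question was which transcripts differ between CD135-high cells with more and with less Sca-1. In each of 2 library pools of 96 cells, the 32 cells with the highest CD135 antibody signal were taken. Of these, the 16 with the highest Sca-1 signal formed the upper side and the 16 with the lowest Sca-1 signal the lower side, which gave 32 cells a side. Antibody signals chose the cells and no transcript did. All cells were labelled as C57BL/6 LSK cells, that is lineage-negative progenitors that carry Sca-1 and the receptor cKit. They came from marrow of mice aged 8 to 16 weeks that was enriched for cKit on magnetic beads. The protocol for growth also lists Pep3b, Cas9-Tg and Dach1-GFP mice, but the strain label of these cells reads C57BL/6, and no treatment or animal is named for them. All cells were therefore taken as 1 biological sample, no test was possible, and every interval below is a 95% interval that covers counting error only.

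Sca-1 is a small surface protein of the Ly6 family, encoded largely by Ly6a in this strain, and it is used with cKit to find stem and early progenitor cells. CD135 is the receptor Flt3. LSK cells that carry much of it are multipotent progenitors primed towards the lymphoid lineages, in which Dntt, the recombination genes and later the interleukin-7 receptor chain CD127 (Il7r) begin to be transcribed. Hlf is a transcription factor of stem cells, Irf8 one of dendritic cells and monocytes, and Mpo a granule enzyme of neutrophil and monocyte precursors.

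The 32 upper cells held 599425 gene UMIs, which are counted molecules, and the 32 lower cells 601756. A cell of the upper side had 9040 to 35405 gene UMIs with a median of 17643.5, and a cell of the lower side 7243 to 41199 with a median of 17222.5. Levels below are UMIs summed over a side per 1000000 gene UMIs (CPM), and a log2 ratio is that of the upper over the lower side. Of the markers of lymphoid-primed progenitors, Flt3 had a UMI in 32 upper and 31 lower cells, Satb1 in 31 and 31, Ighm in 31 and 32, and Dntt in 30 and 31. The others were in fewer cells: Ccr9 in 9 and 13, Il7r in 1 and 6, and Rag1 in 0 and 4. Among markers of megakaryocyte, erythroid, B, T, stromal and neutrophil lineages, Vwf, Gata1, Pax5, Tcf7 and S100a8 were at 0 UMIs on both sides. Macrophage markers had few UMIs, mostly in the upper side: C1qa had 3 and 0, C1qb 4 and 1, and Adgre1 3 and 0. The macrophage gene list summed to 51 UMIs in the upper and 9 in the lower side, a log2 ratio of 2.51 (1.47 to 3.72). The erythroid gene Car1 had 21 and 11 UMIs, the endothelial gene Emcn 6 and 14, Gata3 8 and 1, Hbb-bt 5 and 1, Pf4 3 and 2, Gp9 2 and 3, and Camp 3 and 1.

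The Sca-1 signal of the upper side ran from 1961.5 to 7440 arbitrary units with a median of 2820, and that of the lower side from 638 to 1850 with a median of 1083. The boundary between the sides lay between 1961.5 and 1850 in pool 1, and between 2158 and 1462 in pool 2. The lowest CD135 signal taken was 1118 in pool 1 and 1132.4 in pool 2, against 1110.2 and 1132.1 in the next cell left out. The CD135 signal had medians of 1651 and 1679 in the upper and lower side of pool 1, and of 1911 and 1493 in pool 2. The CD11b signal, a myeloid integrin, had higher medians in the upper side of both pools, at 117 against 81.9 and at 108 against 66.6, and its part in the results was not tested. The CD16/32 signal, an Fc receptor stain, had a median of 596 in the upper and 251 in the lower side of pool 1, but 428 and 403 in pool 2. Across 32 cells of a pool, the Spearman correlation of CD16/32 with Sca-1 was 0.64 in pool 1 and 0.07 in pool 2. The part of CD16/32 in the differences below was not tested beyond the alternative within CD16/32 classes.

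**Figure D1:**
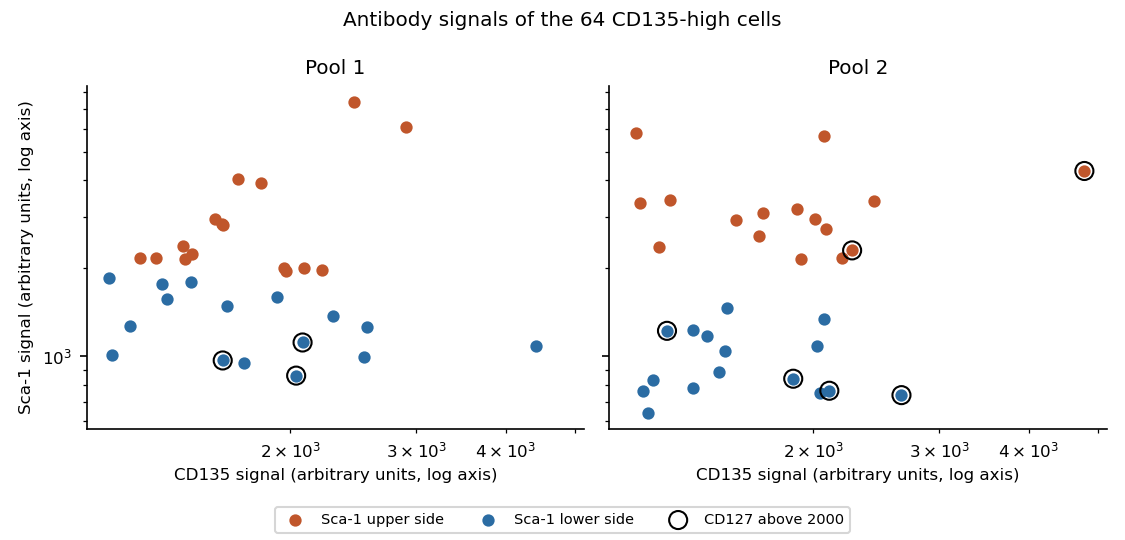
CD135 signal (x axis, arbitrary units, log axis) and Sca-1 signal (y axis, arbitrary units, log axis) of the 64 cells, with 1 panel per pool. Orange points are the 32 upper cells and blue points the 32 lower cells. Black rings mark the 9 cells with CD127 above 2000, of which 7 lie on the lower side.

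CD127-high cells, with a signal above 2000 units, were unevenly placed. The upper side held 2, both in pool 2, and the lower side held 7, with 3 in pool 1 and 4 in pool 2. Together these 9 cells gave 17.2% of the gene UMIs of the 64 cells. They held 41 of 42 Il7r UMIs and 8 of 8 UMIs of Rag1, which encodes a part of the recombinase. They also held 37.7% of the Dntt UMIs and 47.1% of the Cmah UMIs, but only 2.70% of the Hlf UMIs. Main results are therefore given also without them, which leaves 30 upper and 25 lower cells.

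The promoters of Hlf, Dntt and Il7r are printed because these genes mark the ends of the contrast: Hlf was higher in the upper side, Dntt lower, and Il7r was almost all in CD127-high cells. The sequences are from RefSeq on GRCm38.p6 and run from 250 bases before to 50 bases after the annotated start. Hlf lies at chr11:90390868-90391167 on the minus strand, Dntt at chr19:41029025-41029324 on the plus strand and Il7r at chr15:9529827-9530126 on the minus strand. In the annotation used for gene positions below, Il7r runs over chr15:9505788-9530176, so its window lies inside the gene by that annotation. Capitals mark matches on either strand to the E-box CANNTG, the GATA motif AGATAA and the STAT motif TTCNNNGAA. The ETS motif CGGAAG and the TATA box TATAAA were searched too and were not found in these 3 windows.
Hlf: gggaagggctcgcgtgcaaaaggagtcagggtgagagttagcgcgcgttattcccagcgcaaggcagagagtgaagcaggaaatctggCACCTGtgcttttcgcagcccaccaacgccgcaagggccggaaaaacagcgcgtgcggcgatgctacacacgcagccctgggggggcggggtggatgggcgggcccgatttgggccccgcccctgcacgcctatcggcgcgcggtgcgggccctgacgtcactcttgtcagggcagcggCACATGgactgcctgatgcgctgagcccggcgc
Dntt: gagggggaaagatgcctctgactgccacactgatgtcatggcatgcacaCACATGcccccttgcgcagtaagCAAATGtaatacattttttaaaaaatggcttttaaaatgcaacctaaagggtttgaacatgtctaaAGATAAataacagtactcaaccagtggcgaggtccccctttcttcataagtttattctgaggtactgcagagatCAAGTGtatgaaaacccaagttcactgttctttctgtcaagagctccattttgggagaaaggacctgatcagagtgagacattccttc
Il7r: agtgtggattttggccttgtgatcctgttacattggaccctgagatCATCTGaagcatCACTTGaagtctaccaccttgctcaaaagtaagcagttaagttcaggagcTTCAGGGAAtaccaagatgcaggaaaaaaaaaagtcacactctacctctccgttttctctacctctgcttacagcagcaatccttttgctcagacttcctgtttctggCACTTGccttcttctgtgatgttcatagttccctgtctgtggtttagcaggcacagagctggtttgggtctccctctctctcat
Hlf had 2 E-boxes, Dntt 3 E-boxes and 1 GATA match, and Il7r 3 E-boxes and 1 STAT match. Of 32851 promoters of the same length, 72.3% held an E-box, 11.2% a GATA match, 8.30% a STAT match, 16.9% an ETS match and 13.6% a TATA box. A match describes letters only and shows no binding.

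Ly6a, the gene of Sca-1 itself, had more UMIs in the upper side of both pools, with a much larger difference in pool 2. The lowest, median and highest cell values were 0, 22.1 and 295 CPM in the upper side and 0, 0 and 199 CPM in the lower side. The sides overlapped: Ly6a was found in 16 of 32 upper cells (50.0%, exact Clopper-Pearson interval 31.9 to 68.1) and in 7 of 32 lower cells (21.9%, 9.28 to 40.0). In pool 1 it was in 6 upper and 6 lower cells, and in pool 2 in 10 and 1, so the difference in the number of cells came from pool 2. With every cell thinned to 10372 UMIs, 15 of 31 upper and 3 of 26 lower cells had a Ly6a UMI, with 1 upper and 6 lower cells too shallow to use. Summed, Ly6a was at 75.1 CPM (45 UMIs) in the upper and 14.96 CPM (9 UMIs) in the lower side, a log2 ratio of 2.33 (1.28 to 3.55). The ratio was 1.21 in pool 1 (17 against 8 UMIs) and 4.69 in pool 2 (28 against 1), and 1.70 (0.63 to 2.94) without CD127-high cells. Ly6e, a near relative that is not the Sca-1 antigen, was at 472 and 442 CPM, a log2 ratio of 0.09 (-0.15 to 0.34). Ly6a lies at chr15:74994877-74998031 on the minus strand of GRCm38. Hlf lies at chr11:90336536-90390895 on the minus strand and Dntt at chr19:41029275-41059525 on the plus strand. These are positions in the annotation used here, not stated by the authors.

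Hlf, the stem cell transcription factor, was the most abundant stem gene and was higher in the upper side. In pool 1 its lowest, median and highest cell values were 0, 573 and 1636 CPM in the upper and 0, 326 and 2114 CPM in the lower side. In pool 2 they were 0, 375 and 2654 CPM and 0, 78.3 and 2298 CPM. The sides overlapped over nearly their whole range in both pools. Summed, Hlf was at 629 CPM (377 UMIs) and 420 CPM (253 UMIs), a log2 ratio of 0.58 (0.35 to 0.82), with 0.71 in pool 1 and 0.44 in pool 2. Without CD127-high cells the ratio was 0.23 (-0.00 to 0.47), which includes 0.

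Dntt, the terminal transferase that adds untemplated bases at antigen receptor joints, went the other way. In pool 1 its lowest, median and highest cell values were 0, 417 and 1497 CPM in the upper and 95.4, 772 and 4559 CPM in the lower side. In pool 2 they were 0, 370 and 2212 CPM and 0, 793 and 2013 CPM. Both sides had cells with little Dntt, and the 3 cells with the most were all on the lower side of pool 1. Summed, Dntt was at 606 CPM (363 UMIs) and 1103 CPM (664 UMIs), a log2 ratio of -0.87 (-1.05 to -0.68), with -1.19 in pool 1 and -0.46 in pool 2. Without CD127-high cells it was -0.59 (-0.82 to -0.36). The gene was near ubiquitous here, with a UMI in 30 upper and 31 lower cells, against 34 of 63 CD135-low cells (54.0%).

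**Figure D2:**
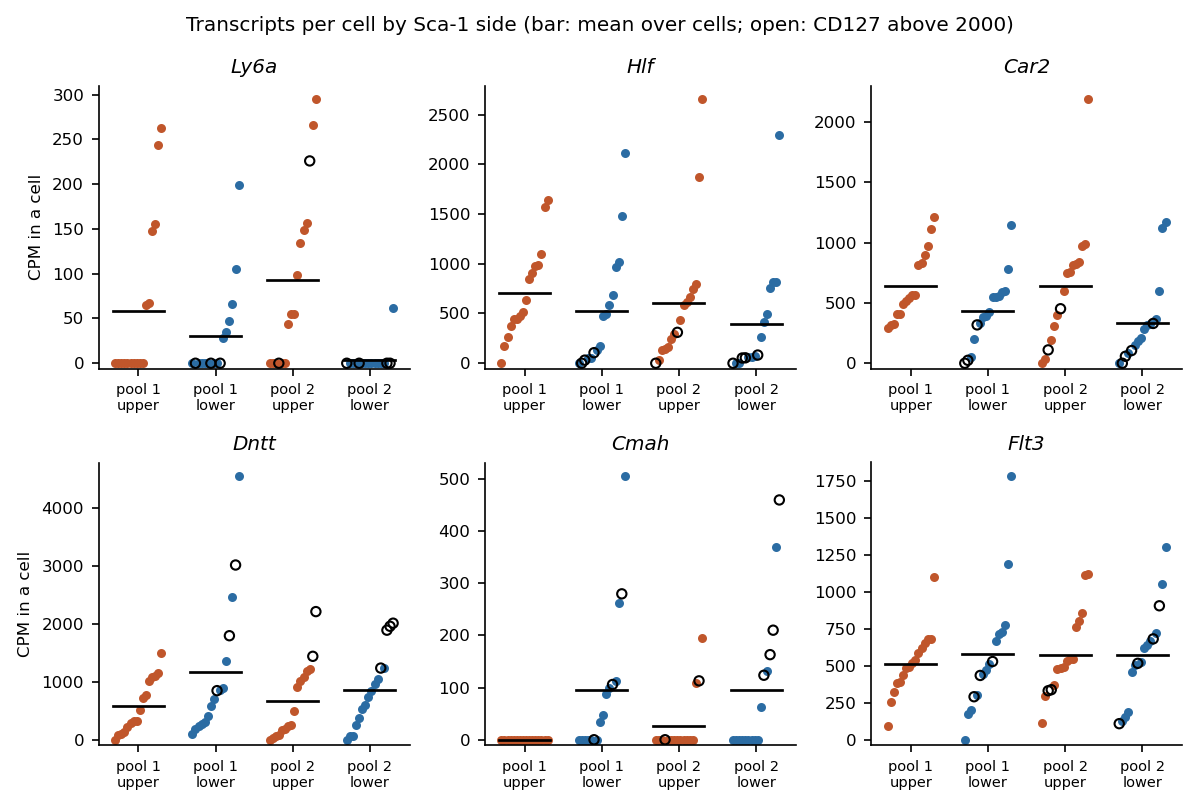
CPM of 6 genes in each cell (y axis), by pool and Sca-1 side (x axis). Filled points are cells, open circles cells with CD127 above 2000 and bars the mean over the 16 cells. Cells of both sides overlap for Ly6a, Hlf, Car2, Dntt and Flt3, while Cmah is at 0 in every upper cell of pool 1.

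Flt3, the transcript of the CD135 protein by which the cells were taken, was at 532 CPM in the upper and 533 CPM in the lower side, a log2 ratio of -0.00 (-0.23 to 0.22). It was 0.02 in pool 1, -0.04 in pool 2 and -0.02 without CD127-high cells. Kit, which encodes cKit, had a ratio of 0.36 (0.06 to 0.67), but 0.78 in pool 1, -0.17 in pool 2 and 0.17 (-0.15 to 0.49) without CD127-high cells. Cd34, a surface mucin of progenitors, was at 554 and 658 CPM, a ratio of -0.25 (-0.46 to -0.03) and of -0.37 without CD127-high cells, and Cd48 at 88.4 and 86.4 CPM, a ratio of 0.03 (-0.55 to 0.61). Itgam (CD11b) had 20 and 18 UMIs, Fcgr3 1 and 3, and Fcgr2b 4 and 6. Slamf1 (CD150) had 1 and 0 UMIs, so neither it nor the Fc receptors could be compared at this depth. Dach1, a transcriptional repressor named in the series title, had 25 and 17 UMIs, a ratio of 0.56 (-0.38 to 1.54), with 1.18 in pool 1, -1.70 in pool 2 and -0.02 without the upper cell that held 9 of its UMIs.

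To see where along Sca-1 these differences lay, the cells of each pool were ranked into 4 bands of 8, which gives 16 cells a band. This division was added after the 2 sides had been compared. The lowest band held 6 of the 9 CD127-high cells and each other band held 1. From the lowest to the highest band, Ly6a was at 15.7, 14.1, 51.7 and 94.4 CPM, so its level was higher in both bands of the upper side. Hlf was at 201, 665, 520 and 718 CPM: the lowest band was below each of the others, and the third was below the highest, beyond their Poisson intervals. Dntt showed the mirror image, with 1580 CPM in the lowest band and then 570, 672 and 551 CPM. Neighbouring bands above the lowest had overlapping Poisson intervals for Dntt, for example 486 to 665 and 578 to 777 CPM. Without CD127-high cells the lowest band kept less Hlf, at 339 CPM against 708, 538 and 768 CPM in the others. It also kept more Dntt, at 1274 CPM against 474, 619 and 444 CPM. By pool, Dntt in the lowest band was 2066 CPM in pool 1 and 979 CPM in pool 2, while the other bands ran from 356 to 834 CPM.

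Other transcripts differed in how they ran along the bands. Car2, a carbonic anhydrase, was at 176 CPM in the lowest band and then 518, 557 and 645 CPM. Il7r was at 126 CPM in the lowest band and then 3.52, 3.69 and 0 CPM, and at 5.74 CPM there without CD127-high cells. Cmah, which hydroxylates sialic acid, was at 132, 56.3, 14.8 and 18.3 CPM. Flt3 was level, at 538, 528, 546 and 521 CPM. The median CD135 signal was 1957 in the lowest band and 1466, 1942 and 1698 in the bands above.

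**Figure D3:**
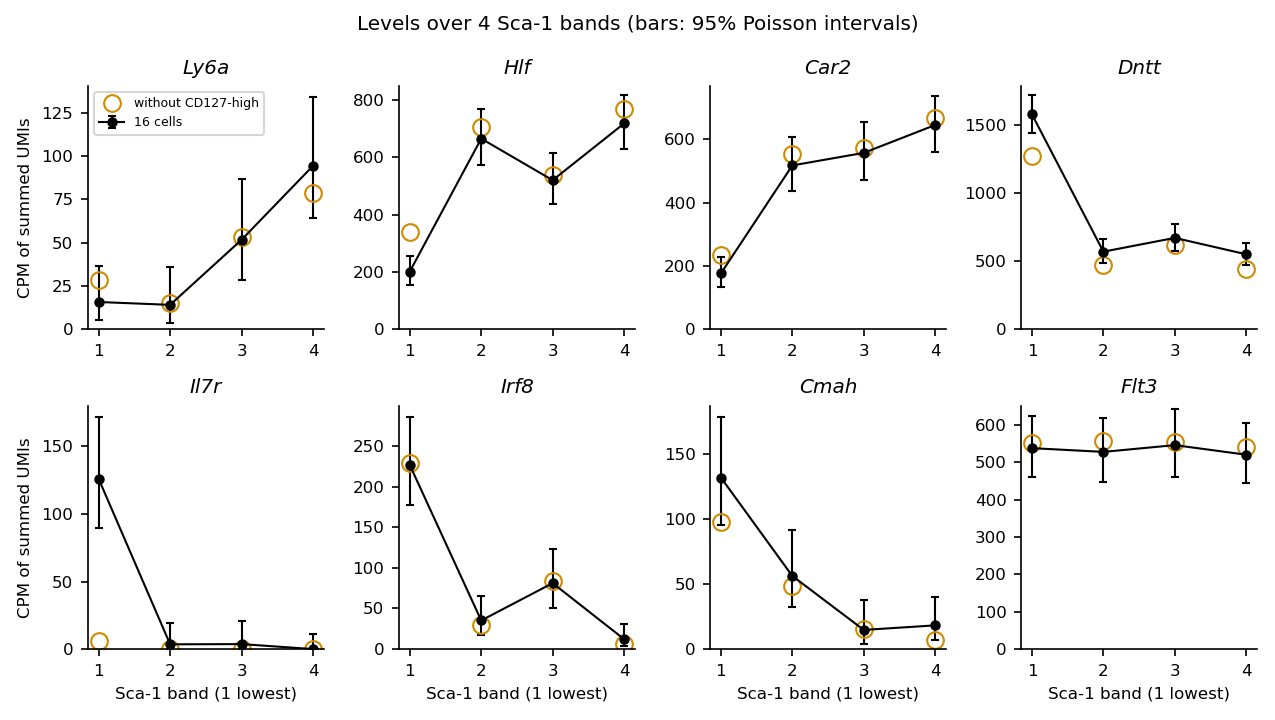
CPM of summed UMIs (y axis) of 8 genes in the 4 Sca-1 bands of 16 cells (x axis, 1 is the lowest). Black points have 95% Poisson intervals, and open circles leave out the CD127-high cells. Hlf and Car2 are lowest and Dntt highest in band 1, Ly6a is higher in bands 3 and 4, and Flt3 lies between 521 and 546 CPM in all 4 bands.

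Across all genes the contrast was small and repeated poorly. Of 4162 genes with 50 or more UMIs over both sides, 50 were over 2-fold higher in the upper side with the same sign in both pools (1.2%), and 24 were over 2-fold lower (0.577%). Without CD127-high cells the counts were 33 of 3508 genes (0.941%) and 25 of 3508 (0.713%). The pools lay on the same side of 0 for 52.5% of the 4162 genes, close to an even split. Across these genes the log2 ratios of the pools had a Pearson correlation of 0.05 and a Spearman correlation of 0.06, and 0.10 and 0.12 over the 949 genes with 200 or more UMIs. Genes share cells and depth and are not independent replicates. Most single-gene differences below therefore have no more support than their counts and the agreement of 2 pools, on which they were also chosen.

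The 12 named genes that were higher in the upper side were taken from 831 genes that met the same conditions, by the interval farthest from 0. Besides Ly6a they were of mixed function. Mycn, a Myc family transcription factor, had 42 against 13 UMIs, a log2 ratio of 1.70 (0.77 to 2.72), and 2.66 without CD127-high cells. In pool 1 it had 14 against 9 UMIs in 4 and 4 cells, a ratio of 0.76, and in pool 2 28 against 4 UMIs in 12 and 1 cells, a ratio of 2.69. Vldlr, a lipoprotein receptor, had 64 against 23 UMIs, a ratio of 1.48 (0.77 to 2.24), and 1.18 without CD127-high cells. Ocrl, a phosphoinositide phosphatase, had 61 against 21 UMIs, a ratio of 1.54 (0.81 to 2.33), and 1.57 without them. Car2 had the most counts after Dntt, with 363 against 203 UMIs, a ratio of 0.84 (0.59 to 1.10), with 0.80 in pool 1, 0.92 in pool 2 and 0.54 without CD127-high cells.

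Kcnq1ot1, a long non-coding transcript of an imprinted region, was at 474 and 251 CPM, a log2 ratio of 0.92 (0.63 to 1.21). Trp53bp1, a DNA break repair protein, was at 135 and 58.2 CPM, a ratio of 1.22. Whether its reads were kept apart from those of Tubgcp4 on the opposite strand is not known, since the counting is not stated to use strand. The same holds for Dnah8, a dynein heavy chain with a ratio of 1.49, and Glo1, and for Arhgap27, a GTPase activator with 1.33, and its antisense transcripts. Ptms (parathymosin) had a ratio of 1.53, Phkb, a subunit of phosphorylase kinase, 1.41, and Stxbp4, a syntaxin-binding protein, 1.22. These 12 genes were above 0 in both pools and without CD127-high cells, as the rule for naming them asked.

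The 12 named genes that were lower in the upper side came from 853 that met the conditions. Cmah had the largest ratio among them: 0 UMIs in all 16 upper cells of pool 1 against 31 in the lower cells, and 10 against 27 in pool 2. Over both pools it had 10 against 58 UMIs, in 3 against 16 cells, a log2 ratio of -2.53 (-3.66 to -1.55), and -2.66 without CD127-high cells. In CD135-low cells 2 of 63 had a Cmah UMI. With thinned cells 3 of 31 upper and 11 of 26 lower cells had one. Cmah and the predicted gene Gm11342 overlap on opposite strands, and the latter had 4 UMIs in the 64 cells.

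Tfrc, the transferrin receptor that brings iron into dividing cells, had 19 against 53 UMIs, a log2 ratio of -1.47 (-2.31 to -0.69), and -1.09 without CD127-high cells. Cdca7, a chromatin protein of dividing cells, was at 130 and 228 CPM, a ratio of -0.81 (-1.23 to -0.40). Bod1l, which protects stalled replication forks, was at 81.7 and 165 CPM, a ratio of -1.01. Mgat1, an enzyme of N-glycan branching, was at 112 and 209 CPM, a ratio of -0.91. L3mbtl3, a reader of methylated lysine, had a ratio of -1.18, Lbh, a transcription cofactor, -1.15, and Utp3, a factor of ribosome assembly, -1.41. Arhgap5, another GTPase activator, had -1.39, Zfp422, a zinc finger protein, -0.96, and Ppp4r3a, a phosphatase subunit that overlaps D130020L05Rik on the opposite strand, -1.04.

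**Figure D4:**
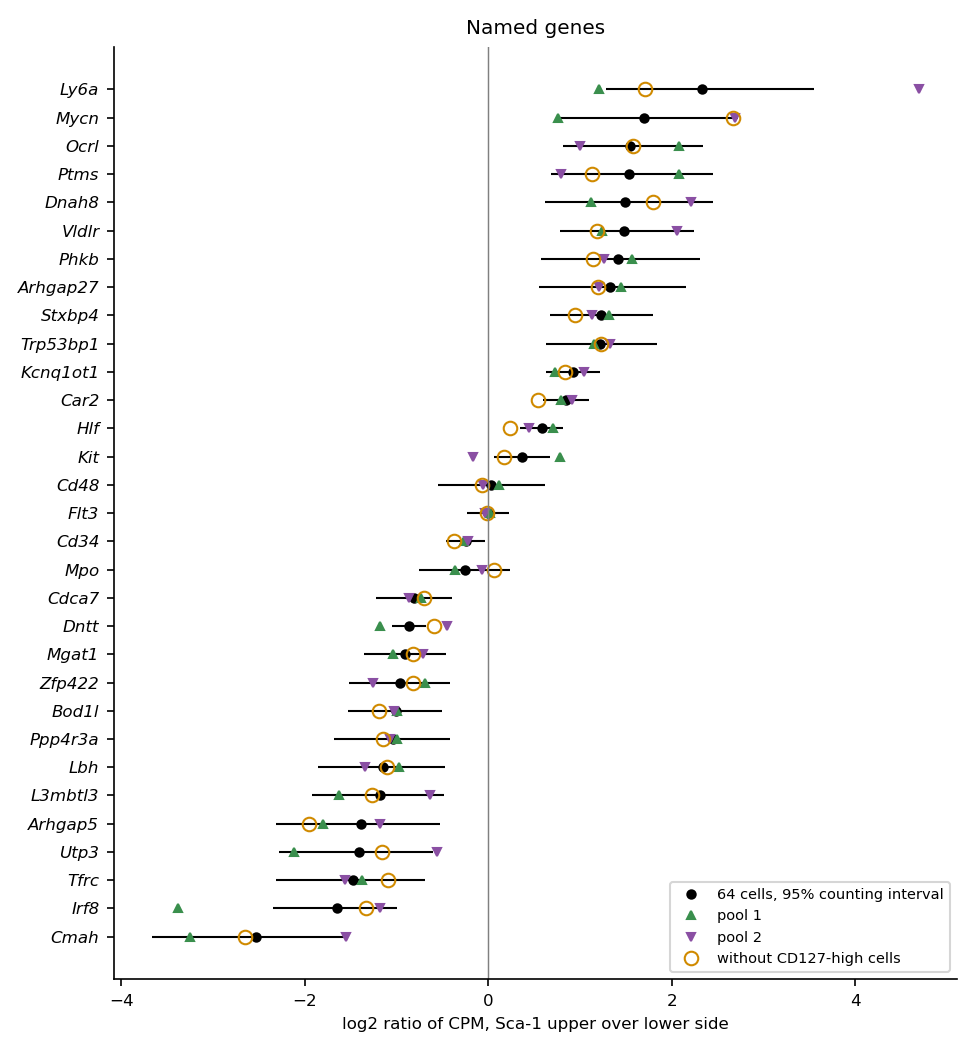
Log2 ratio of CPM, upper over lower side (x axis), of the 24 genes named by rule and of Hlf, Irf8, Mpo, Flt3, Kit, Cd34 and Cd48 (y axis). Black points are the 64 cells with 95% counting intervals, triangles the 2 pools and open circles the cells without CD127-high ones, with the pool 1 point of Cmah a bound from 3 UMIs. Flt3 sits at -0.00, and Hlf moves from 0.58 to 0.23 without CD127-high cells.

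Stem cell genes as a list were higher in the upper side. Of 31 genes in the list, 18 had 10 or more UMIs, and 17 of these were above 0, against 53.9% of all 10084 such genes. In both pools 12 of the 18 were above 0, against 25.6% of all genes. The median log2 ratio was 0.60, with 0.73 in pool 1 and 0.59 in pool 2, beside 0.01 over all genes. Without CD127-high cells it was 0.39, and 14 of 18 were above 0. Apart from Hlf, the largest counts were those of Ifitm1 at 325 and 204 CPM, a ratio of 0.67 (0.34 to 1.01), and of Angpt1, a ligand of the Tie receptors, at 324 and 243 CPM, a ratio of 0.42 (0.10 to 0.74). Mecom, a stem cell transcription factor, had 33 against 16 UMIs, a ratio of 1.05 (0.15 to 2.01). Procr had 9 against 5 UMIs and Meis1 162 against 130, a ratio of 0.32 (-0.02 to 0.67). Rbpms, at -0.09, was the 1 member below 0.

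The stem list was also lowest in the lowest Sca-1 band. Its summed level was 1186 CPM there and 2370, 2325 and 2515 CPM in the bands above. Without Hlf the sums were 985, 1704, 1805 and 1796 CPM. Without the CD127-high cells the full sums were 1549, 2500, 2375 and 2655 CPM. Hox genes and other stem transcription factors showed a smaller difference, with a median of 0.20, and 0.06 without CD127-high cells. Of these 22 genes, 17 were above 0 (53.9% of all genes) and 10 above 0 in both pools (25.6% of all genes). Among them Erg, an ETS factor, was at 182 and 101 CPM, a ratio of 0.84 (0.38 to 1.32). Hoxa5 had 39 against 16 UMIs, a ratio of 1.29 (0.42 to 2.23).

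Lymphoid priming genes showed no shared direction as a list. Of 21 measured members of 25, 7 were above 0 and 14 below, against 46.1% of all genes below 0. In both pools 8 were below 0, against 24.2% of all genes. The median log2 ratio was -0.12, with -0.52 in pool 1, -0.04 in pool 2 and -0.02 without CD127-high cells. Its abundant members other than Dntt and Flt3 lay nearer 0. Ighm, the immunoglobulin heavy chain locus, was at 425 and 555 CPM, a ratio of -0.38 (-0.62 to -0.14). Satb1, a chromatin organiser of early lymphoid cells, was at 454 and 475 CPM, a ratio of -0.07. Bcl11a was at 507 and 457 CPM (0.15), and Mef2c at 404 and 465 CPM (-0.20). Notch1, the receptor that drives T cell commitment, was at 117 and 174 CPM, a ratio of -0.58 (-1.04 to -0.13). Ccr9, a thymus homing receptor, had 38 against 78 UMIs, but a ratio of -4.18 in pool 1 and 0.76 in pool 2.

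Along the Sca-1 bands the lymphoid priming list summed to 6253 CPM in the lowest band and to 4602, 4632 and 4636 CPM above it. Without Dntt the sums were 4673, 4032, 3960 and 4085 CPM, so Dntt gave most of the excess of the lowest band. The full sums were 6720, 4106, 4684 and 3585 CPM in pool 1. In pool 2 they were 5675.5, 5161, 4582 and 5744 CPM, where the highest band was above the lowest. Without Dntt those of pool 2 were 4697, 4374, 4064 and 4988 CPM. The excess of the lowest band over every other band was thus in pool 1 alone. Il7r had 1 UMI in the upper and 41 in the lower side, a log2 ratio of -5.35 (-10.69 to -2.79). The single lower UMI outside CD127-high cells left nothing to compare without them. Rag1 had 0 against 8 UMIs and Rag2 5 against 13.

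**Figure D5:**
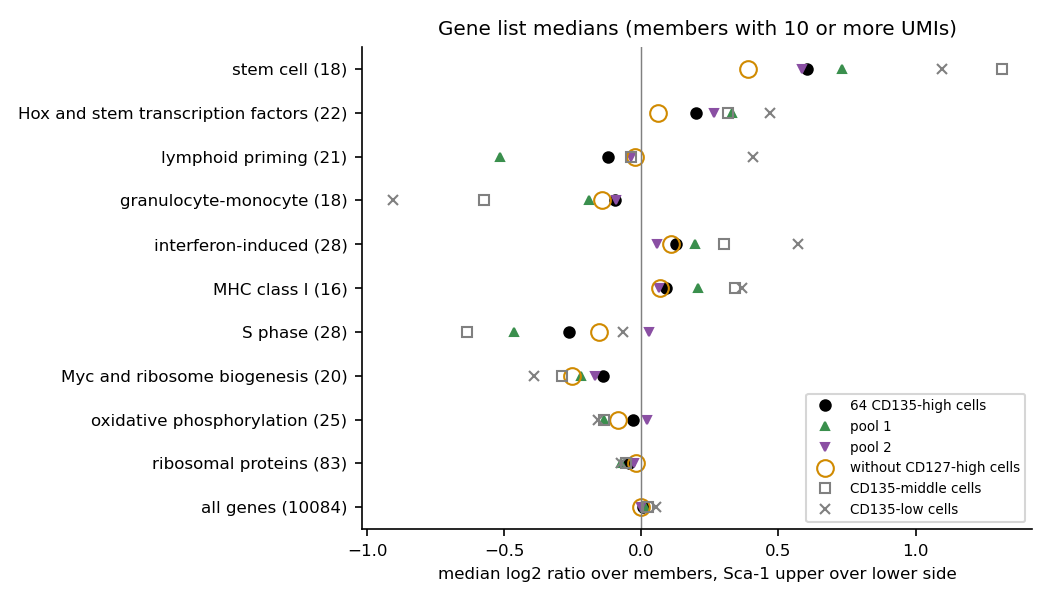
Median log2 ratio over the measured members of 10 gene lists and of all genes (x axis), upper over lower Sca-1 side, with the number measured in brackets (y axis). Black points are the 64 cells, triangles the pools, open circles the cells without CD127-high ones, squares the CD135-middle and crosses the CD135-low cells. The stem cell list is at 0.60 here, 1.31 in the CD135-middle and 1.10 in the CD135-low cells.

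Summed, Irf8 was lower in the upper side, with 26 against 82 UMIs in 6 against 15 cells, a log2 ratio of -1.65 (-2.35 to -1.0). The ratio was -3.38 in pool 1 (3 against 34 UMIs) and -1.18 in pool 2 (23 against 48). CD127-high cells held 15 and 9 of the 34 UMIs of the lower side in pool 1. Few cells carried Irf8: 1 lower cell of pool 2 held 28 UMIs and 1 upper cell held 18. With each cell left out in turn the ratio ran from -3.29 to -1.09, and without that lower cell it was -1.09 (-1.82 to -0.39). Without CD127-high cells it was -1.34 (-2.11 to -0.60), from 24 against 48 UMIs. That lower cell was not CD127-high, and 28 of these 48 UMIs were its own. The ratio with both left out was not computed, so a difference beyond these cells is not shown. The lower cell had 426 of the 907 MHC class II UMIs of the 64 cells, where the next cell had 41, with 155 Cd74, 110 Cst3 and 1 Dntt UMIs and none of Mpo. Its CD16/32 signal of 2178 was the highest of the 64 cells, while its CD135 signal was 1198 and its CD127 signal 597. With it the 8 MHC class II genes had a median of -1.05, with 1 above 0 (53.9% of all genes were), and without it 0.65, with 5 above 0. Without CD127-high cells, but with it, the median was -1.49. Cd74 without it had 68 against 7 UMIs, a ratio of 3.25. The dendritic and monocyte list had a median of -1.13 over 9 genes, for 6 of which a single cell held over 20% of the UMIs, and -0.52 over 7 genes without that cell.

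Granulocyte and monocyte genes showed no shared direction, with 7 of 18 above 0, against 53.9% of all genes, and a median of -0.10. Mpo was at 108 and 130 CPM, a log2 ratio of -0.26 (-0.76 to 0.24), with -0.37 in pool 1 and -0.07 in pool 2. It was 0.057 (-0.51 to 0.63) without CD127-high cells, and -0.86 without the upper cell that held 24 of its UMIs. Plac8 was at 414 and 605 CPM, a ratio of -0.55 (-0.79 to -0.31), and -0.09 without CD127-high cells. Prtn3, a granule protease, had 80 against 48 UMIs, a ratio of 0.74 (0.21 to 1.29), with 1.504 in pool 1 and 0.02 in pool 2. Clec12a, a lectin receptor of myeloid cells, had 8 against 49 UMIs, a ratio of -2.61 (-3.90 to -1.52), and 1 cell held 21.1% of them.

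Interferon-induced genes, among which Ly6a is often counted, had a median log2 ratio of 0.13, with 19 of 28 above 0 and 10 of 28 above 0 in both pools. The shares over all genes were 53.9% and 25.6%. Ifi203 was at 510 and 404 CPM, a ratio of 0.34 (0.09 to 0.59), and Ifitm3 at 275 and 244 CPM, a ratio of 0.17 (-0.16 to 0.50). Components of interferon and Jak-Stat signalling had a median of 0.19, and -0.04 without CD127-high cells. Among them Stat3 was at 147 and 84.7 CPM, a ratio of 0.79 (0.28 to 1.32), with 0.97 and 0.61 in the pools and 0.53 without CD127-high cells. Jak1, at 335 and 284 CPM, had a ratio of 0.24 (-0.06 to 0.54). MHC class I genes had a median of 0.09, with 9 of 16 above 0, near the 53.9% of all genes.

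Genes of DNA replication tended to be lower in the upper side, with 9 of 28 above 0 and a median of -0.26, but the pools gave -0.47 and 0.03. Over all genes 53.9% were above 0. Pcna, the replication clamp, was at 350 and 457 CPM, a log2 ratio of -0.38 (-0.65 to -0.12). Mcm6, a helicase subunit, was at 224 and 299 CPM, a ratio of -0.42 (-0.75 to -0.09), and -0.07 without CD127-high cells. Mitosis genes had a median of 0.33 over 17 genes, for 12 of which a single cell held over 20% of the UMIs. Cdk6, Cdk4 and Ccnd2, which drive entry into the cycle, were each lower in the upper side. Their ratios were -0.66 (-1.05 to -0.28), -0.51 (-0.85 to -0.18) and -0.43 (-0.66 to -0.19), with both pools below 0 for all 3, while the list of Cdk inhibitors and D cyclins that holds them had 6 of 12 members above 0 and a median of -0.09. Forward scatter, a measure of cell size, had medians of 135000 and 144000 in the upper and lower side of pool 1, and of 142500 and 138500 in pool 2. Its part in these values was not tested beyond the alternative within forward scatter classes.

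The same split by Sca-1 was made among the other LSK cells, 64 with middle and 63 with low CD135. The differences between CD135 classes were not tested. Hlf had a log2 ratio of 0.58 in the CD135-high, 1.63 (1.42 to 1.84) in the CD135-middle and 1.52 (1.28 to 1.76) in the CD135-low cells. Ly6a had 2.33, 1.79 (0.98 to 2.66) and 3.27 (1.79 to 5.22), with overlapping intervals. Mpo had -0.26, -1.93 (-2.42 to -1.46) and -2.97 (-3.43 to -2.55). In the CD135-low cells Mpo was at -3.74 in pool 1 but -0.60 in pool 2. There 1 cell held 121 of the 420 Mpo UMIs of the lower side. Granulocyte and monocyte genes as a list had medians of -0.10, -0.58 and -0.91. Stem cell genes had 17 of 18, 22 of 22 and 24 of 25 members above 0, against 53.9%, 51.9% and 53.5% of all genes with 10 or more UMIs in each class. Dntt had -0.87, -1.89 (-2.46 to -1.36) and -0.70 (-1.39 to -0.04), from 1027, 200 and 85 UMIs. In the CD135-low cells Dntt was at -1.45 in pool 1 and 0.14 in pool 2. Mycn had 1.70, 1.24 (0.46 to 2.06) and 0.81 (0.11 to 1.55), and Car2 0.84, 0.82 (0.62 to 1.03) and 0.29 (0.13 to 0.46). In the CD135-low cells Car2 was at 0.52 in pool 1 and -0.01 in pool 2. Among the 24 genes named by rule, 2 had the opposite sign in another class with an interval apart from 0. Kcnq1ot1 was at 0.92 here and at -0.94 (-1.16 to -0.72) in the CD135-low cells, and Utp3 at -1.41 here and at 1.07 (0.22 to 1.95) in the CD135-middle cells.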

How the data were processed

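Cells were sorted singly into 384-well plates and made into libraries by an adapted CEL-seq2 method, per the labels' protocols, in which 6 bases (the UMI) mark the molecule and 8 bases the cell. The authors deposited whole-number UMI counts, which had not been normalized. For the aligner, the counter and the collapsing of UMIs, the sources used here name nothing. According to the submitters' processing notes the build was GRCh38, a human build, while all genes carry mouse identifiers. Symbols and positions were therefore taken by identifier from GENCODE M21 (GRCm38), which named 20530 of 20764 genes.

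The first index of a cell's title gave its pool, and what the pools stand for is not stated. All 96 second indexes occur in both pools. Cells under 20% of their pool's median gene UMIs were dropped after ranking, which left 191 of 192 and removed none of the 64. UMIs were summed over a side and divided by its gene UMIs, spike-ins left out. Ratios have exact conditional binomial intervals, sums Poisson intervals and shares Clopper-Pearson intervals, from scipy 1.17.1. A gene at 0 on 1 side was set at the bound from 3 UMIs over that side, and the scripts were tested on simulated data. The largest count, 3223, is near the 4096 sequences that the UMI allows, and no correction for collisions was made.

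List medians used members with 10 or more UMIs. Named genes had 50 or more UMIs, the same sign in both pools and without CD127-high cells, and no cell with over 20% of the UMIs. Predicted models, pseudogenes and ribosomal proteins were left out, and the 12 per direction with the interval farthest from 0 were taken. The genes of the sorted proteins, Dach1, Hlf, Irf8, Mpo and Dntt were added, as were abundant members of described lists. Less abundant list members (Mecom, Procr, Rbpms, Erg, Hoxa5, Notch1, Ccr9, Rag1, Rag2, Clec12a, Cdk4, Cdk6 and others) were named after their values were seen. The cells, the 30 lists and the rules were chosen with earlier results of these data known. The Poisson and binomial precision of a level follows its UMIs. Alternatives covered CD127, each pool, scaling, thinning, gene minimums, other Sca-1 and CD135 boundaries, classes of other signals, and each cell left out.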

Additional observations from a re-analysis of the deposited data

How the results depend on the processing

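Of 560 alternative values of the named genes, 31 had the opposite sign to the value reported, for 7 genes: Cd48, Dach1, Fcgr2b, Flt3, Itgam, Kit and Mpo. The interval of the value reported lay apart from 0 for Kit alone among these, which was at 0.36 over both pools and at -0.17 in pool 2. The genes named by rule were chosen for 1 sign in both pools and without CD127-high cells, so their direction there shows no stability. Ly6a, at 2.33, was at 1.21 in pool 1 and 4.69 in pool 2. The 50 of 4162 genes over 2-fold higher (1.2%) became 33 of 3508 (0.941%) without CD127-high cells. In pool 1 alone they became 32, with 50 UMIs asked within that pool and no sign asked in pool 2. The count was 28 with thinned cells, and 325 or 8 with a minimum of 20 or 100 UMIs. The 24 of 4162 genes over 2-fold lower (0.577%) became 39 with the 10 highest against the 10 lowest Sca-1 cells. With those minimums they became 171 or 4. These alternatives measured different numbers of genes, so counts given without a share cannot be compared directly. With the 10 highest against the 10 lowest, medians were 1.16 for stem cell, -2.39 for dendritic and monocyte, -0.33 for Myc and ribosome biogenesis, and 0.49 for interferon-induced genes. Interferon-induced genes were at 0.41 within CD135, 0.39 within cKit and -0.062 within forward scatter classes. S phase genes were at -0.47 in pool 1, 0.029 in pool 2, -0.56 with the 24 highest CD135 cells and -0.60 within cKit classes. MHC class II genes were at 1.09 in pool 1 and 0.60 with the 24 highest CD135 cells, lymphoid priming genes at -0.52 in pool 1, and mitosis genes at 0.69 in pool 2. Hlf ran from 0.23 to 1.92 and Dntt from -1.26 to -0.46 over their alternatives. The causes were not tested. No analysis paired by animal was possible because the labels name no animal. Depth limits genes of few UMIs, such as Il7r, Procr and Slamf1.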

Other observations

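The list of Myc and ribosome biogenesis genes was slightly lower in the upper Sca-1 side, with a median log2 ratio of -0.14. Of its 20 genes, 13 were below 0 (46.1% of all genes were) and 11 below 0 in both pools (24.2% of all genes). The abundant nucleolar proteins Npm1 and Ncl were at 1074 and 1323 CPM, a ratio of -0.30 (-0.45 to -0.15), and at 896 and 1092 CPM, a ratio of -0.29 (-0.45 to -0.12). Myc itself was at 239 and 183 CPM, a ratio of 0.38 (0.02 to 0.76), with -0.14 in pool 1 and 0.88 in pool 2. Ribosomal proteins had a median of -0.05 over 83 genes, with 55 of them below 0, against 46.1% of all genes. From the lowest to the highest Sca-1 band they summed to 102577, 102523, 102145 and 97343 CPM, so only the highest band was lower.

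Among adhesion and cytokine receptors, Itga6, an integrin of stem and progenitor cells, had 35 against 15 UMIs, a ratio of 1.23 (0.32 to 2.21), with 1.05 and 1.69 in the pools. Il6ra, the interleukin-6 receptor, had 20 against 8 UMIs, a ratio of 1.33 (0.08 to 2.72), with 1.12 and 1.37. Lax1, an adaptor of lymphocyte signalling that was on the lymphoid list, was higher in the upper side, at 160 and 91.4 CPM, a ratio of 0.81 (0.32 to 1.31). These genes were chosen after their values were seen.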
